A study of Macaca mulatta with 36 samples.

Results

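HES5, SOX11 and BCAN, 3 genes known from neural progenitor cells, were followed in the hippocampus of male rhesus macaques with simian immunodeficiency virus encephalitis (SIVE) and of uninfected controls. All probe sets of the Affymetrix rhesus array that the probe-to-gene table pairs with 1 of these symbols and no other were taken, which gave 2 for HES5, 3 for SOX11 and 2 for BCAN, or 7 of 52865. The 3 genes were picked because their signal was lower in SIVE. Their SIVE differences are therefore described without a test, and tests are given only for comparisons that this choice did not use.

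The study holds 9 SIVE animals and 9 controls with 2 arrays each, 36 arrays in all, labelled as technical replicates and averaged here for each animal. An anti-CD8 treatment, an antibody given to macaques to remove CD8 T cells, is recorded for 4 SIVE animals, all 6 years old, and for 2 controls aged 3 to 4 years. The 5 untreated SIVE animals were 2 to 5 years old and the 7 untreated controls 3 to 8 years old. No infected animal without encephalitis is part of the comparison, so infection and encephalitis cannot be told apart. Among SIVE animals, age and anti-CD8 treatment cannot be told apart either. The p-values measure the spread between these animals, except where the 36 arrays entered singly.

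Values are log2 signals, on which a difference of 1 is a 2-fold change. SIVE 2, SIVE 3 and Control 8 had a 3′ signal of the control transcripts that exceeded the 5′ signal by 0.955 to 1.45, against 0.104 to 0.466 in the other 15 animals, and all 3 carry the anti-CD8 label. Results that rest on them are given with and without them. In tissue arrays, fewer cells of a type and less RNA per cell cannot be told apart. PROX1, a transcription factor of dentate granule neurons, was at 8.44 in SIVE and 8.62 in controls, above the median probe set level of 5.65.

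HES5 is a basic helix-loop-helix repressor that is switched on when a Notch receptor, cleaved after binding a ligand of the Delta or Jagged type on a neighbouring cell, joins the DNA-binding protein RBPJ in the nucleus. It holds back proneural factors and keeps radial glia and adult neural stem cells, including those of the dentate gyrus, from differentiating, and it is also expressed in astrocytes. SOX11 is a transcription factor of committed progenitors and immature neurons, where it acts with its close relative SOX4. BCAN encodes brevican, a brain proteoglycan of the lectican family that binds hyaluronan in the extracellular matrix and in perineuronal nets and is made by astrocytes, oligodendrocyte precursors and some neurons.

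HES5 was the gene with the lowest SIVE difference of 14132 genes, each read at its brightest probe set, and that probe set had the 4th lowest difference of the 52707 probe sets tested. In untreated controls its signal ran from 7.74 through a median of 8.01 to 8.14, and the 2 treated controls were at 8.50 (Control 8) and 7.55 (Control 9). The untreated SIVE animals were at 6.80, 6.93, 6.30, 6.50 and 6.13, and the treated ones, SIVE 1 to SIVE 4, at 7.49, 7.40, 7.26 and 6.69. All 9 SIVE animals lay below all 9 controls, though the highest SIVE animal and the lowest control, both treated, were only 7.49 and 7.55. Of all probe sets, 0.101% had every SIVE animal below every control, and since HES5 was chosen on this contrast nothing is read from that share. SIVE animals averaged 6.83 ± 0.48 (SD, n = 9) and controls 7.95 ± 0.28 (n = 9), which differ by -1.12 ± 0.17 (SE), or 2.17-fold lower in SIVE. The SD of a single array around its animal's mean was 0.110, well under the spread between animals.

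**Figure D1:**
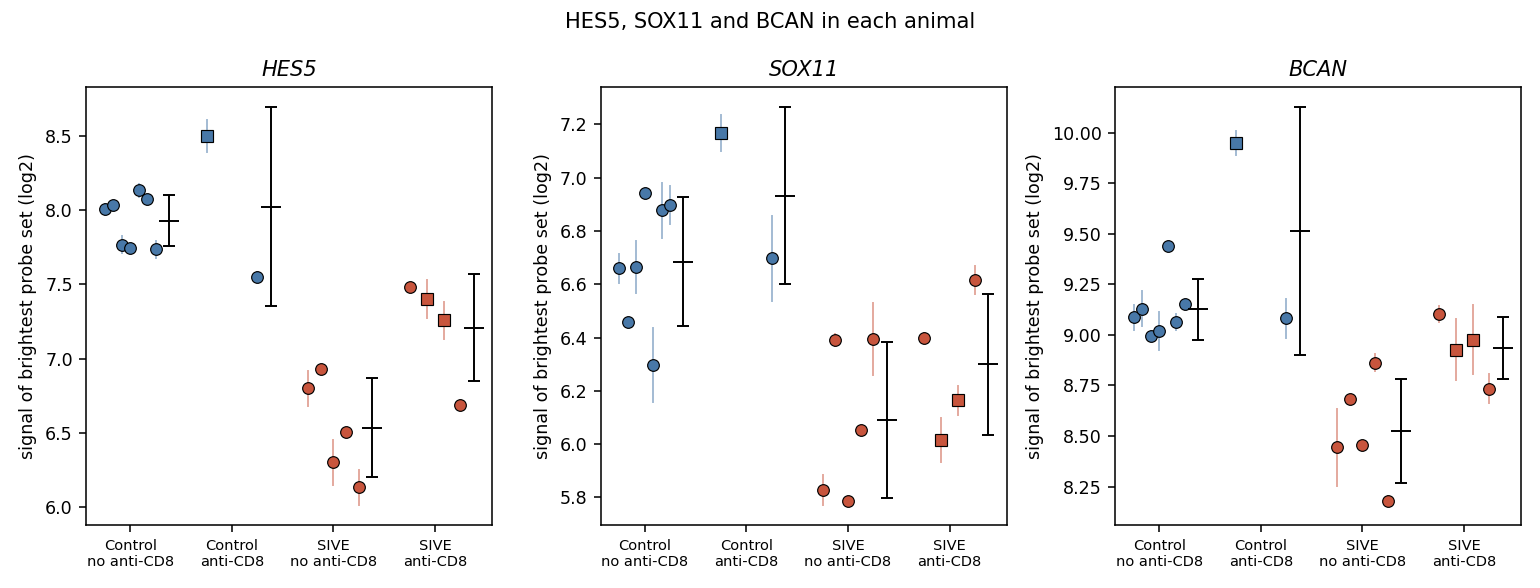
Log2 signal of the brightest probe set of HES5, SOX11 and BCAN in each animal, by group and anti-CD8 label. Points are means of 2 arrays, the thin line through a point joins these arrays, squares are SIVE 2, SIVE 3 and Control 8, and the black bar beside each group is its mean ± SD. For HES5 every SIVE animal lies below every control, and the 5 untreated SIVE animals are at 6.13 to 6.93.

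Among animals without anti-CD8, the HES5 means were 6.53 ± 0.33 (SD) over 5 SIVE animals and 7.93 ± 0.17 over 7 controls, and the difference was -1.40 ± 0.18 (SE), or 2.63-fold lower. Among treated animals the means were 7.21 ± 0.36 (n = 4) and 8.02 ± 0.67 (n = 2), a difference of -0.82 ± 0.26. This value depends on which of the 2 treated controls is used: it was -0.34 without Control 8 and -1.29 without Control 9. Without SIVE 2, SIVE 3 and Control 8, the HES5 means over all labels were 6.69 ± 0.45 (n = 7) and 7.88 ± 0.21 (n = 8), and the difference was -1.19.

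SOX11 showed a smaller difference with overlapping groups. Untreated controls ran from 6.30 through a median of 6.66 to 6.94, and the treated controls were at 7.17 (Control 8) and 6.70 (Control 9). The untreated SIVE animals were at 5.83, 6.39, 5.78, 6.05 and 6.39, and the treated ones at 6.40, 6.02, 6.16 and 6.62. Of the SIVE animals 5 lay below all controls, and 7 controls lay above all SIVE animals. Control 5 was the lowest control and SIVE 4 the highest SIVE animal. The means were 6.18 ± 0.29 (SD, n = 9) and 6.74 ± 0.26 (n = 9), a difference of -0.56 ± 0.12 (SE), or 1.47-fold lower in SIVE, which ranked 48th from the lowest among genes. The difference was -0.59 ± 0.15 without anti-CD8 and -0.63 ± 0.22 with it, the latter -0.40 without Control 8 and -0.87 without Control 9. Without SIVE 2, SIVE 3 and Control 8 it was -0.48 over all labels and -0.19 among treated animals, where only SIVE 1, SIVE 4 and Control 9 remain.

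BCAN, read on a bright probe set, ran from 8.99 through 9.09 to 9.44 in untreated controls, and the treated controls were at 9.95 (Control 8) and 9.08 (Control 9). The untreated SIVE animals were at 8.44, 8.68, 8.45, 8.86 and 8.18, all below every control. The treated SIVE animals were at 9.10, 8.93, 8.98 and 8.73, and SIVE 1 among them was the only SIVE animal inside the control range. SIVE animals averaged 8.71 ± 0.30 (SD, n = 9) and controls 9.21 ± 0.30 (n = 9), which differ by -0.51 ± 0.13 (SE), or 1.42-fold lower, 75th from the lowest among genes. The difference was -0.60 ± 0.14 without anti-CD8. With anti-CD8 it was -0.58 ± 0.20, which became -0.15 without Control 8 and -1.01 without Control 9.

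The other probe sets of the 3 genes had smaller differences, all of them negative in the comparison of all animals. On the dimmer BCAN probe set, SIVE animals averaged 7.28 ± 0.34 (SD, n = 9) and controls 7.65 ± 0.32 (n = 9), which differ by -0.37 ± 0.15 (SE). Its deviations from the group means followed those of the brighter BCAN probe set (r = 0.72 over 18 animals, and 0.46 over the 15 without high 3′ signal). A SOX11 probe set of middling signal was at 5.69 ± 0.30 and 5.97 ± 0.51, a difference of -0.28 ± 0.18, and its deviations had an r with the brightest SOX11 probe set of 0.37 over 18 animals and 0.74 over 15. The dimmest SOX11 probe set was at 3.49 ± 0.09 and 3.63 ± 0.14, below the median probe set level. The dim HES5 probe set was at 4.73 ± 0.11 and 4.94 ± 0.31, a difference of -0.22 ± 0.11. Its deviations had an r of -0.02 with those of the bright one, so the HES5 result rests on 1 probe set. Averaged over all probe sets of a gene, the differences were -0.67 for HES5, -0.44 for BCAN and -0.33 for SOX11. Among treated animals the SIVE difference was 0.08 ± 0.33 (SE) on the middling SOX11 probe set, opposite in sign to that of the brightest one, and -0.14 ± 0.23 on the dimmer BCAN probe set. The correlations describe probe sets read on the same arrays.

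**Figure D2:**
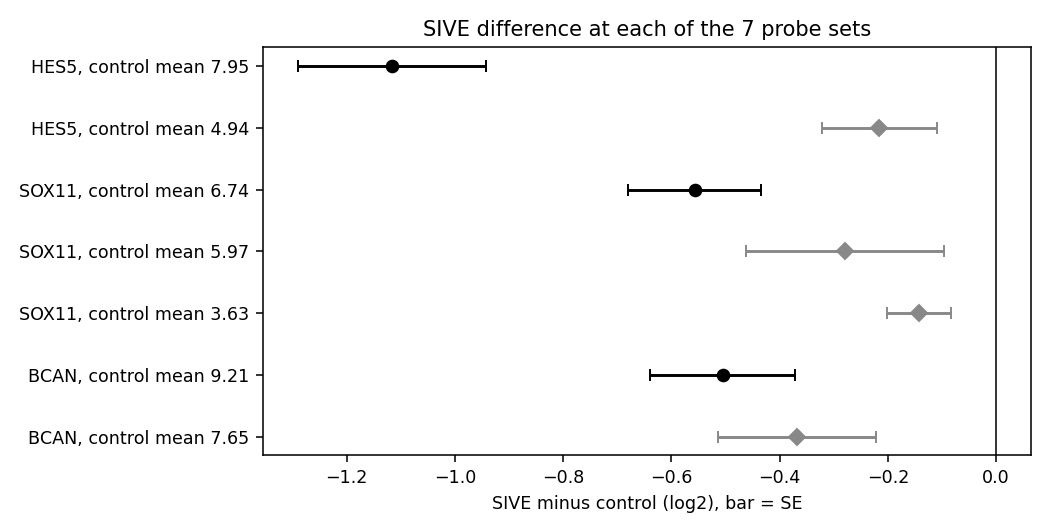
SIVE minus control difference (log2, point) with its SE (bar) at each of the 7 probe sets, labelled by gene and by the control mean of the probe set. Black circles are the brightest probe set of a gene and grey diamonds the others. All 7 points lie below 0, from -1.12 at the bright HES5 probe set to -0.14 at the dimmest SOX11 probe set.

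The anti-CD8 label was not used to choose the genes, so its comparisons were tested with limma. Within SIVE, HES5 was at 7.21 ± 0.36 (SD, n = 4) with treatment and 6.53 ± 0.33 (n = 5) without it, a difference of 0.67 ± 0.20 (SE), or 1.60-fold. SIVE 4, at 6.69, lay inside the untreated range of 6.13 to 6.93, and the other 3 treated animals lay above it. The difference did not pass the threshold in limma (p = 0.00382, Benjamini-Hochberg adjusted p = 0.304 over all probe sets). In this comparison 0.0019% of probe sets, 1 of 52707, were called by limma, while 8079 had an unadjusted p under 0.05. When the 36 arrays entered singly with the animal as a random block, 1930 probe sets were called and the adjusted p of HES5 was 0.0229. That fit takes 1 correlation between the arrays of an animal for all probe sets. Where these arrays agree more closely than that, its p-values are too small. Without SIVE 2, SIVE 3 and Control 8 the HES5 difference was 0.55 (adjusted p = 1.00). Over the alternatives tried it lay between 0.55 and 0.85.

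BCAN was also at a higher mean in treated SIVE animals, 8.94 ± 0.15 (SD, n = 4) against 8.52 ± 0.26 (n = 5), a difference of 0.41 ± 0.16 (SE, limma adjusted p = 0.304). The dimmer BCAN probe set gave 7.56 ± 0.28 against 7.06 ± 0.18, a difference of 0.50 ± 0.18 (adjusted p = 0.304). With the animal as a random block over 36 arrays, a fit with the limit given above, its adjusted p was 0.0457, and that of the brighter probe set 0.0657. SOX11 gave 6.30 ± 0.26 and 6.09 ± 0.29, a difference of 0.21 ± 0.17 (adjusted p = 0.553). Of the treated SIVE animals, SIVE 2 and SIVE 3 had a 3′ signal of 1.19 and 0.955, and SIVE 1 and SIVE 4 of 0.104 and 0.275. Without SIVE 2, SIVE 3 and Control 8 the difference was 0.39 on the brighter BCAN probe set, 0.31 on the dimmer one and 0.42 for SOX11 (adjusted p = 1.00 for each). Leaving out single animals gave 0.10 to 0.30 for SOX11.

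Within controls, the treated animals differed from the untreated ones by 0.09 ± 0.24 (SE) for HES5 (limma adjusted p = 0.843), 0.25 ± 0.20 for SOX11 (adjusted p = 0.505) and 0.39 ± 0.19 for BCAN (adjusted p = 0.321). Limma called 0% of probe sets here, and 8266 had an unadjusted p under 0.05. The values rest on 2 treated controls that lie far apart. For BCAN the difference was 0.82 without Control 9, which leaves Control 8, an animal of high 3′ signal, alone, and -0.045 without Control 8. For HES5 these values were 0.57 and -0.38. The lone treated control was taken to vary like the other groups.

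The difference between the SIVE effects with and without anti-CD8 was 0.58 ± 0.31 (SE) for HES5, which lies between -0.05 and 1.21 at 2 SE on either side (limma p = 0.0822, adjusted p = 1). It was 0.11 without Control 9, 1.05 without Control 8 and 0.93 without SIVE 2, SIVE 3 and Control 8. The difference was -0.04 ± 0.27 for SOX11 and 0.02 ± 0.24 for BCAN (adjusted p = 1 for each). Limma called 0% of probe sets in this comparison, and 1481 had an unadjusted p under 0.05. The SIVE effects in treated and untreated animals were thus not shown to differ for any of the 3 genes, nor shown to be alike.

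The 3 genes were also set against each other across the animals of a group, which the choice of the genes did not use. HES5 and BCAN had a Pearson r of 0.83 within SIVE (n = 9, exact permutation p = 0.00654, two-sided) and a Spearman rho of 0.78, with an r of 0.64 when the 2 animals farthest from the BCAN median were left out. Both genes had a higher mean in treated SIVE animals, so r holds the anti-CD8 and age split. With values centred on the mean of each label it was 0.63 in SIVE (exact permutation within labels, p = 0.0851) and 0.88 in controls (p = 0.0655), and the 4 treated and 5 untreated SIVE animals are too few for an r of their own. Within controls r was 0.81 (n = 9, exact permutation p = 0.00775) and rho 0.50, but r was 0.18 without the 2 farthest animals, so the control relation rests on these. Of 33 relations computed, 0 passed Benjamini-Hochberg adjustment and 3 had an unadjusted exact permutation p under 0.05, and the adjusted p of HES5 with BCAN was 0.128 in either group. Without the animals of high 3′ signal, r between HES5 and BCAN was 0.79 in 7 SIVE animals, where rho was 0.57 and r without the 2 farthest animals 0.10, and 0.51 in 8 controls. The SIVE relation over these 7 animals thus also rests on 2 of them.

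For SOX11 the Pearson r with HES5 was 0.10 in SIVE (exact permutation p = 0.785, n = 9) and 0.16 in controls (exact permutation p = 0.684, n = 9), and with BCAN 0.17 in SIVE and 0.31 in controls. The SIVE animal with the highest SOX11 signal, SIVE 4, ranked near the middle of the SIVE animals for HES5, at 6.69, and SIVE 9, the lowest for HES5, had a SOX11 signal of 6.39.

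**Figure D3:**
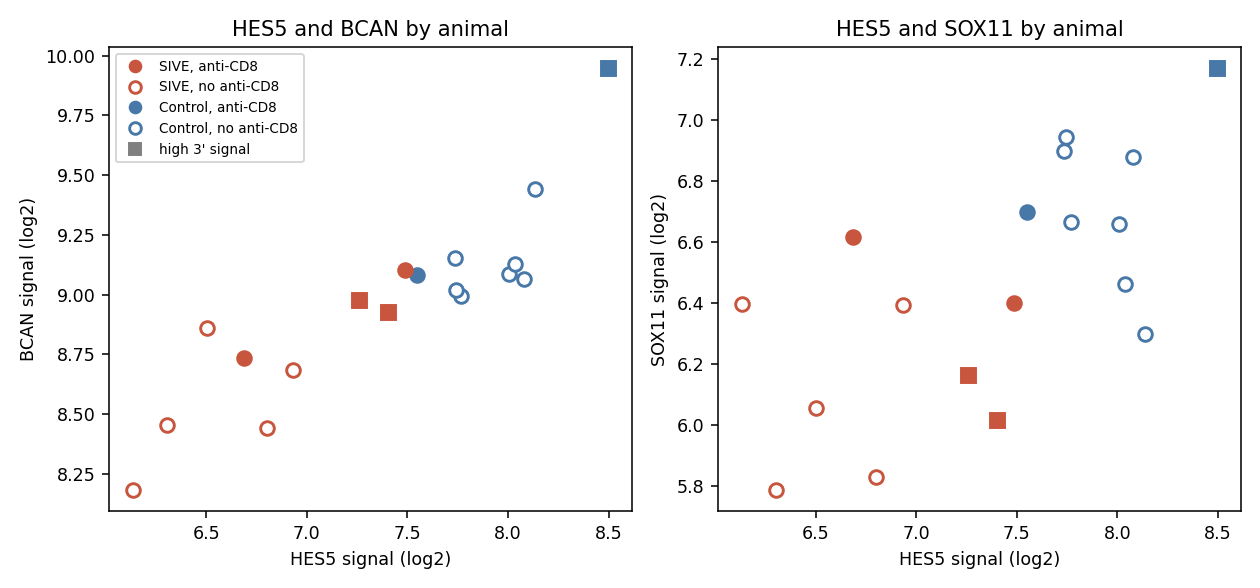
Log2 signal of BCAN (left) and SOX11 (right) against that of HES5, with 1 point for each of the 18 animals. Red is SIVE, blue is control, filled points carry the anti-CD8 label, open points do not, and squares are the 3 animals of high 3′ signal. Within SIVE r was 0.83 for HES5 and BCAN, with treated animals mostly at the upper right, and 0.10 for HES5 and SOX11.

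No relation of the 3 genes with age or with the strength of the inflammatory response passed adjustment. The mean shift of 15 interferon-stimulated genes ran from 2.60 to 3.62 in SIVE animals and from -0.23 to 0.18 in controls. Its r within SIVE was -0.08 with HES5, -0.13 with SOX11 and -0.35 with BCAN. The mean shift of 11 microglia and macrophage markers, 0.12 to 0.65 in SIVE and -0.26 to 0.19 in controls, had an r within SIVE of 0.36, 0.19 and 0.08 in the same order. Age had an r of 0.30 with HES5, -0.01 with SOX11 and 0.26 with BCAN within SIVE. The signal of a virus probe set, 7.53 to 11.22 in SIVE, had an r of -0.54 with HES5 (n = 9, exact permutation p = 0.137, adjusted p = 0.644), -0.55 with SOX11 and -0.47 with BCAN. For HES5 it was -0.80 over the 7 SIVE animals without high 3′ signal (exact permutation p = 0.0276, adjusted p = 0.354). The 3′ signal itself had an r of 0.76 with HES5 in controls (n = 9, exact permutation p = 0.0184, adjusted p = 0.202), which was 0.40 without the 2 farthest animals, and 0.89 with BCAN, which was 0.08 without them.

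Genes were ranked by how closely their deviations from the group means followed those of each of the 3 genes over the 18 animals, among 9341 genes above the median level. These r values are descriptions, since all genes of an animal share its arrays. Closest to HES5 were RMND5B (r = 0.91, and 0.88 over the 15 animals without high 3′ signal), ZGPAT (0.89 and 0.87) and METRN (0.88 and 0.81), which encodes the secreted glial factor meteorin. BCAN stood at rank 162 in this order, with an r of 0.79, and SOX11 at rank 4675, with an r of 0.12. Closest to SOX11 were CMAH (0.80 and 0.75), DHRS11 (0.79 and 0.83) and PDCD2L (0.78 and 0.85). Closest to BCAN were APBA3 (0.91 and 0.81), ANKRD13B (0.90 and 0.81) and the histone deacetylase HDAC5 (0.90 and 0.79). Of these 9 genes only DHRS11 passed the limma threshold in SIVE against control, at -0.31 ± 0.07 (adjusted p = 0.00953). Over the 15 animals without high 3′ signal, APBA3, ANKRD13B and HDAC5 fell to ranks 14, 12 and 20. METRN fell to rank 15 and CMAH to 17. MDFI then joined the closest 3 for HES5 and HTR1E those for SOX11, and BTBD2, PPP1R1B and TM7SF2 were closest to BCAN. Of the genes that came in, BTBD2 (-0.565, adjusted p = 0.0275) and MDFI (-0.299, adjusted p = 0.0460) passed in limma over 18 animals. HTR1E, PPP1R1B and TM7SF2 did not.

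For the genes of the surrounding pathways, SIVE was compared with control by limma over all 18 animals, with adjustment over all probe sets. This comparison called 4.92% of probe sets, 3.63% higher and 1.3% lower in SIVE, that is 1912 and 683 of 52707, or 2159 and 398 after centring each array on its median. An unadjusted p under 0.05 was reached by 11199 of 52707 probe sets, or 21.2%, and the unadjusted counts of the lists below stand beside that share. Over all lists 73 of 199 genes reached it, 33 of them lower in SIVE. The median difference was -0.02 over the 14132 genes at their brightest probe set, of which 809 were called higher and 213 lower. The lists count genes in this way, so their calls stand beside these gene counts. The lists below were drawn up with results of these data known, and each is given by its counts and median.

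In the Notch pathway above HES5, calls were found only among genes of receptor processing and modulation. Of 7 ligands 0 were called and 2 had an unadjusted p under 0.05, both lower in SIVE. The median difference was -0.14, with values of -0.12 ± 0.08 (SE) for DLL1 and -0.12 ± 0.10 for JAG1. Of 3 receptors measured 0 were called and 1, lower in SIVE, had an unadjusted p under 0.05, with a median of -0.12. NOTCH2 was at 0.19 ± 0.19 and NOTCH3 at -0.33 ± 0.13, and NOTCH1 was not analysed here. Of 9 nuclear factors 0 were called and 4 had an unadjusted p under 0.05, 3 of them lower. The median was -0.02, with RBPJ at 0.06 ± 0.11. Of 13 genes of receptor processing and modulation 3 were called higher and 0 lower, with a median of 0.16. Among these 13, 5 had an unadjusted p under 0.05, 0 of them lower. DTX3L, a ubiquitin ligase of the Deltex family that is also induced by interferon, rose by 2.71 ± 0.18 (adjusted p = 2.43e-09), from 6.70 ± 0.34 (SD) in controls to 9.41 ± 0.45. DTX1, a Deltex ligase that binds the Notch receptor, rose by 0.94 ± 0.27 (adjusted p = 0.0475), and NCSTN, the nicastrin subunit of the gamma-secretase that cleaves the receptor, by 0.20 ± 0.06 (adjusted p = 0.0446). The other probe set of DTX1 and that of NCSTN were lower in SIVE, neither of them called. The call of DTX1 was lost (adjusted p 0.0524 to 0.091) when SIVE 1, 4, 5, 6, 7 or 9 or Control 2, 3, 4, 5, 7 or 9 was left out, and that of NCSTN (0.0526 to 0.0916) without SIVE 1, 3, 4, 5, 7 or 9 or Control 1, 2, 4, 5, 7 or 9.

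Of the other HES and HEY genes and related repressors, 10 were measured, with a median of -0.08. Among these 10, 2 had an unadjusted p under 0.05, both lower in SIVE, and 1 was called lower and 0 higher. The gene called lower was HES6, a HES relative that promotes neuronal differentiation and opposes HES1. HES6 averaged 5.93 ± 0.22 (SD, n = 9) in SIVE against 6.46 ± 0.20 (n = 9) among controls, a fall of 0.53 ± 0.10 (SE, adjusted p = 0.00181). Its SIVE animals, at 5.49 to 6.17, all lay below its controls, at 6.19 to 6.76, with a narrow gap. Such a separation was found in 0.101% of all probe sets. HES6 was named for its adjusted p in this contrast, so nothing further is read from it. The canonical Notch targets HES1, at -0.17 ± 0.07 (adjusted p = 0.185), and HEY1, at -0.10 ± 0.08 (adjusted p = 0.509), did not pass. Among 10 proneural, E-protein and ID factors 2 rose and 1 fell, 4 had an unadjusted p under 0.05, 2 of them lower, and the median was -0.06. ID3 rose by 0.60 ± 0.11 (adjusted p = 0.00221) and ID4 by 0.43 ± 0.11 (adjusted p = 0.0234), both of which block the binding of helix-loop-helix factors to DNA. TCF3, an E-protein partner of proneural factors, fell by 0.69 ± 0.18 (adjusted p = 0.0261), and its other 6 probe sets were also lower. Of the other 3 probe sets of ID4, 2 were also higher, and none was called. Without SIVE 5 the adjusted p was 0.0504 for ID4 and 0.0532 for TCF3.

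**Figure D4:**
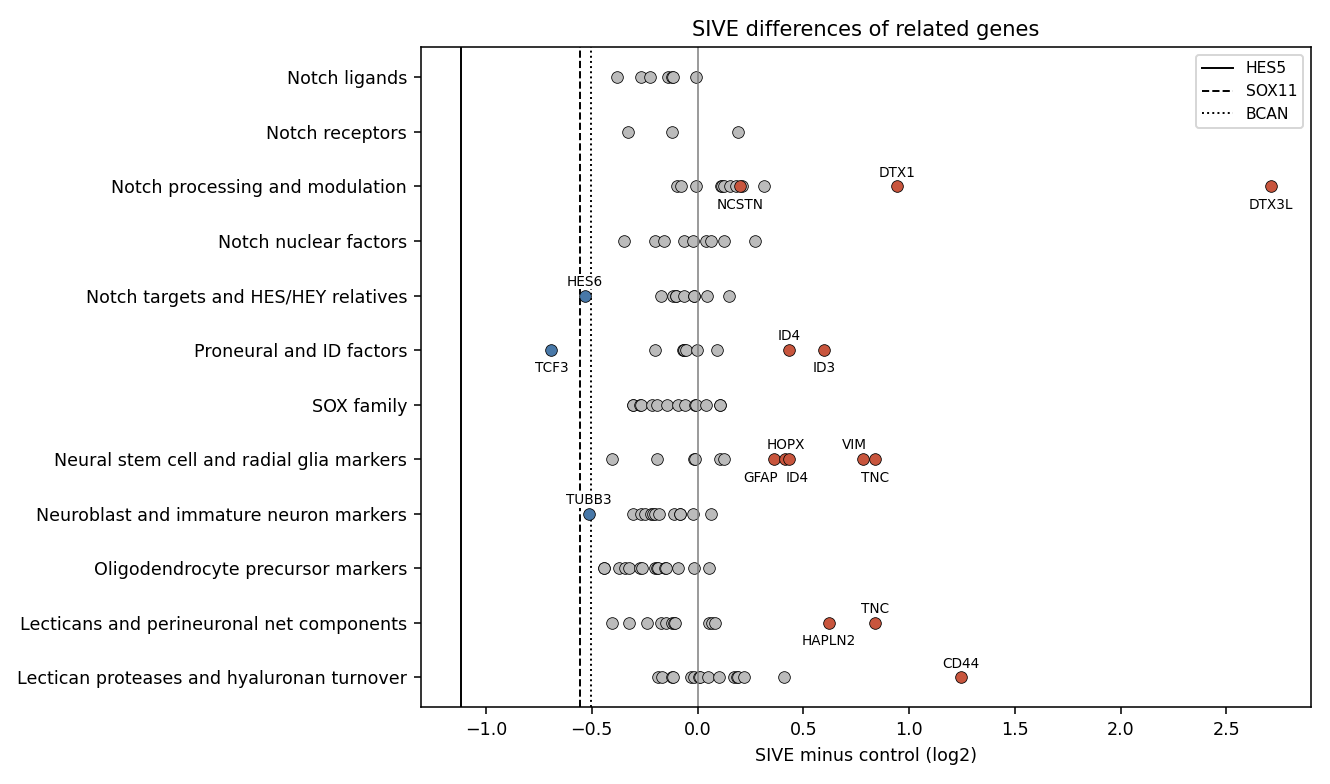
SIVE minus control difference (log2) of each measured gene in 12 lists, at its brightest probe set. Red points were called higher and blue points lower in SIVE by limma, grey points were not called, and the black lines mark HES5, SOX11 and BCAN. Apart from TCF3 at -0.69, HES6 at -0.53 and TUBB3 at -0.51, the genes of these lists lie to the right of all 3 lines.

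Of 14 other SOX family genes 0 were called by limma and 4 had an unadjusted p under 0.05, all 4 lower in SIVE. The median was -0.12 and the range -0.31 to 0.11. SOX4, the SOX11 relative active in the same immature neurons, was at 8.29 in SIVE and 8.60 in controls, a difference of -0.30 ± 0.11 (SE, limma adjusted p = 0.121, and 0.0487 without Control 8). SOX2, the stem cell factor, was at -0.01 ± 0.09 and SOX9, of stem cells and astrocytes, at 0.04 ± 0.10. Of 13 other neuroblast and immature neuron markers 4 had an unadjusted p under 0.05, all 4 lower in SIVE. The list had 1 call lower and 0 higher, with a median of -0.20. TUBB3, a tubulin of young and mature neurons, fell by 0.51 ± 0.12 (adjusted p = 0.0118), from 10.39 ± 0.23 (SD, n = 9) to 9.88 ± 0.29 (n = 9). Its other 3 probe sets were lower as well. DCX, the microtubule protein that marks migrating neuroblasts, was at -0.25 ± 0.11 (adjusted p = 0.201). Of 7 markers of mature neurons 0 were called and 0 had an unadjusted p under 0.05, with a median of -0.09.

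Markers of neural stem cells and radial glia, most of which are also made by reactive astrocytes, included 5 that rose and 0 that fell among 11 measured, with a median of 0.12. The same 5 were those with an unadjusted p under 0.05. TNC, the matrix glycoprotein tenascin-C, rose by 0.84 ± 0.13 (SE, adjusted p = 0.000274), the intermediate filament VIM by 0.78 ± 0.16 (adjusted p = 0.00446), the homeodomain protein HOPX by 0.42 ± 0.10 (adjusted p = 0.0183) and GFAP, the astrocyte filament, by 0.36 ± 0.08 (adjusted p = 0.0129). ID4, given above, is the fifth. The other probe set of GFAP was lower in SIVE and was not called. NES was not analysed here. Of 10 astrocyte markers 1 rose, which was GFAP, 1 fell and no other had an unadjusted p under 0.05, with a median of -0.06. The gene that fell was SLC1A2, the main astrocyte glutamate transporter, by 0.52 ± 0.11 (adjusted p = 0.00613). The mean shift of the 10 astrocyte markers ran from -0.25 to 0.06 in SIVE and from -0.18 to 0.13 in controls.

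Around BCAN, 13 lectican and perineuronal net genes gave 2 that rose and 0 that fell, with a median of -0.11. Among these 13, 5 had an unadjusted p under 0.05, 3 of them lower. The other lecticans measured were VCAN, at 0.06 ± 0.09 (SE, adjusted p = 0.773), and ACAN, at -0.11 ± 0.13 (adjusted p = 0.679), and NCAN was not analysed here. TNC, of the tenascin family that lecticans bind, rose as given above. HAPLN2, a link protein that stabilises the bond between lecticans and hyaluronan, rose by 0.62 ± 0.17 (adjusted p = 0.0374), although the call was lost (adjusted p 0.0512 to 0.0696) when SIVE 1, 2, 4 or 6 or Control 1, 2, 3, 4, 5 or 9 was left out. HAPLN2 is also the measured gene next to BCAN in the RefSeq order of the T2T-MMU8v2.0 assembly, and its difference was opposite in sign to that of BCAN. None of the other measured neighbours of the 3 genes, TNFRSF14 and PLCH2 near HES5, EIPR1 near SOX11 and CRABP2 and GPATCH4 near BCAN, was called. Among 16 genes of lectican cleavage and hyaluronan turnover, with a median of 0.03, 6 had an unadjusted p under 0.05, 2 of them lower. In this list 1 gene was called higher and 0 lower. That gene was CD44, the hyaluronan receptor, which rose by 1.24 ± 0.11 (adjusted p = 4.33e-07) from 5.55 ± 0.16 (SD, n = 9) to 6.80 ± 0.32 (n = 9). ADAMTS4, a protease that cleaves brevican, was at -0.01 ± 0.22 (adjusted p = 0.98).

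Oligodendrocyte precursors are a known source of BCAN. Of 15 markers of these cells 0 were called in limma, 8 had an unadjusted p under 0.05, all 8 lower, and the median was -0.20. Their mean shift, which was not tested, ran from -0.39 to -0.06 in SIVE and from -0.12 to 0.29 in controls. The upper ends were SIVE 3 and Control 8, both of high 3′ signal. Without the 3 animals of high 3′ signal they were -0.19 in SIVE (SIVE 4) and 0.05 in controls (Control 3). CSPG4, the NG2 proteoglycan, was at -0.20 ± 0.07 (SE, adjusted p = 0.119) and OLIG2 at -0.34 ± 0.16 (adjusted p = 0.224). Without the 3 animals of high 3′ signal these differences were -0.26 (adjusted p = 0.0107) and -0.40 (adjusted p = 0.0212), and 3 of the markers were called lower. In that setting 1301 of all 52707 probe sets were called lower, against 683 with all animals. PDGFRA was not analysed here. Of 3 myelin genes measured 2 fell, MBP by 0.32 ± 0.07 and UGT8 by 0.58 ± 0.14, and the median of the list was -0.32. The other myelin gene had no unadjusted p under 0.05. Of 11 microglia and macrophage markers 4 were called higher and 0 lower, with LYZ at 2.71 ± 0.30 and PTPRC at 1.52 ± 0.16. The other 7 were not called, none of them with an unadjusted p under 0.05. The median of the list was 0.04 and its lowest difference -0.44. The cytotoxic protease gene GZMB rose by 2.36 ± 0.34, the only call among 7 T and cytotoxic cell markers, whose median was 0.05. Among these 7, 2 had an unadjusted p under 0.05, 0 of them lower. Of 15 interferon-stimulated genes 13 rose and 0 fell, 14 had an unadjusted p under 0.05, 0 of them lower, and the median was 3.49. Of 5 choroid plexus and ependyma markers 0 were called and 0 had an unadjusted p under 0.05, with a median of -0.02. The part of any of these cell types in the lower signal of HES5, SOX11 and BCAN was not tested.

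Secreted signals of the neurogenic niche gave 2 genes that rose and 1 that fell among 20 measured, with a median of 0.01. Among these 20, 5 had an unadjusted p under 0.05, 2 of them lower. BMP4, which acts on neural stem cells and induces ID genes, fell by 0.37 ± 0.08 (SE, adjusted p = 0.00646). IGF1, a growth factor of progenitors and microglia, rose by 0.31 ± 0.06 (adjusted p = 0.00549). EGF rose by 0.32 ± 0.08 (adjusted p = 0.0171), on a probe set below the median level. Within SIVE, 0 of the 199 genes of all 20 lists were called by anti-CD8 label in limma, and 44 had an unadjusted p under 0.05. In this comparison 8079 of all 52707 probe sets, or 15.3%, had an unadjusted p under 0.05. The OLIG2 difference by anti-CD8 label within SIVE was 0.62 ± 0.17 (adjusted p = 0.304).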

How the data were processed

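RNA of the hippocampus was measured on 36 Affymetrix rhesus arrays. The deposited values, on a log2 scale as their range shows, come from RMA, per the submitters' processing notes. RMA corrects each array for background, puts arrays on a common distribution and reduces a probe set to 1 value. No RMA version is given in the sources used here. Precision is limited by the number of animals, as arrays hold no counts. Array medians lay between 5.59 and 5.75. The 99 Affymetrix control and 59 reporter probe sets were left out, and 52707 were tested. Symbols came from the probe-to-gene table (24969 probe sets with 1 symbol, 361 with several, 27535 with none), and a gene was read at the probe set with the highest mean.

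The 2 arrays of an animal were averaged, and limma 3.58.1 in R 4.3.3 (lmFit and eBayes, two-sided) was run with Benjamini-Hochberg adjustment over all tested probe sets and 0.05 as threshold. All 18 animals entered the comparison of SIVE and control. For the anti-CD8 comparisons the 4 sets of animals (SIVE or control, treated or not) had a mean each and shared 1 spread. The step was tested on simulated data. Relations used exact permutation tests, computed over all orderings in numpy 2.4.6 with ranks from scipy 1.17.1. Replicate numbers do not pair the animals: the correlations of deviations of same-numbered animals were -0.49 to 0.09. The 3′ difference is the mean over 3 control transcripts of the 3′ minus the 5′ log2 signal. A list's mean shift in an animal is the mean over its measured genes of the difference from the control mean.

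The members and lists were chosen with earlier results of these data known. Named were all probe sets of the 3 genes and a set of anchor genes whatever their result. Also named were the up to 4 list genes with the smallest adjusted p past the threshold and the 3 genes closest to each member. The closest genes without the 3 animals of high 3′ signal were named as well. NOTCH2, NOTCH3, PROX1 and the neighbouring genes were added after their values were seen. The virus probe set was added as a measure after seeing the data. Alternatives tried were other normalizations, filters, moderation, covariates, single arrays, probe set means and leaving out animals.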

Additional observations from a re-analysis of the deposited data

Results flagged for a closer look

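In 35 groups of values checked for an animal that stands apart from the rest of its group, 4 values did so, and chance gives about 1 in 20 groups. The BCAN signal of Control 8, 9.95, stood above the other controls, of which the next was at 9.44. Control 8 is also the animal with the highest 3′ signal, at 1.45. Among the 7 untreated controls, the BCAN signal of Control 5, 9.44, stood above the next, at 9.15. On the dim HES5 probe set Control 5 was at 5.68, with the next of the 9 controls at 5.04 and the next of the 7 untreated controls at 4.94. It stood apart in both groupings.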

How the results depend on the processing

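Of 3372 values recomputed under an alternative, 3196 kept their side of the threshold or moved by less than the spread, 57 lost and 9 gained a call, 101 moved further and 9 were reversed. Centring on the anti-CD8 label was added after seeing the data. The cause was not tested for any of them. The SIVE difference of the members over both anti-CD8 labels kept its sign at all 7 probe sets under every alternative run. Leaving out single animals gave -1.20 to -1.03 for HES5, -0.61 to -0.50 for SOX11 and -0.56 to -0.41 for BCAN on the brightest probe sets. The mean over probe sets gave -0.67 for HES5. SIVE against control called 2595 probe sets, 2055 to 3013 without single animals, 5294 with the anti-CD8 label as a covariate and 1368 with a replicate block, under which ID4, TCF3, TUBB3, GFAP, HOPX, IGF1, NCSTN and HAPLN2 lost their call. Within SIVE the anti-CD8 label gave 1 call, 1 to 4 without single animals, 0 without the 3 animals of high 3′ signal or on the second array alone, and 1930 with 36 arrays, where HES5 kept its 0.67 and passed. HES5 lay at 0.57 to 0.85 there without single animals. Within controls the label gave 0 calls, 0 to 5963 without single animals (769 without Control 5, 5963 without Control 9), 1 after quantile normalization or without dim probe sets, 284 on the second array and 9 with 36 arrays. There HES5 was -0.38 and BCAN -0.045 without Control 8 or without the 3 animals of high 3′ signal, with ranges of -0.38 to 0.57 and -0.045 to 0.82 over single animals. Among treated animals the SIVE difference on the brightest probe sets ran from -1.29 to -0.34 for HES5 and from -1.01 to -0.15 for BCAN without single animals. Without the 3 animals it was -0.19 for SOX11 and -0.16 for BCAN. Its sign was not kept on the dimmer BCAN probe set, at 0.45 without Control 8. It reached 0.50 on the middling SOX11 probe set without Control 9 and 0.07 on the dimmest one without the 3 animals. On the dim HES5 probe set it stayed negative, at -0.38 to -0.10. The difference of SIVE effects was 0.40 for SOX11 without the 3 animals and -0.41 to 0.46 for BCAN without single animals (-0.41 without Control 9). Without animals of high 3′ signal, r of SOX11 with BCAN in controls was -0.70 and r of BCAN with the 3′ signal in SIVE -0.80. With means over probe sets, r of HES5 with SOX11 in controls was -0.81. Oligodendrocyte precursor markers called lower were 0, 3 without the 3 animals and 4 with the anti-CD8 covariate. Of all 52707 probe sets 683, 1301 and 2785 were called lower, in the same order. The number of animals, above all the 2 treated controls, limits the precision.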
